A study of Mus musculus with 11 samples.

Results

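The mouse genes for the subunits of oxidative phosphorylation were examined in RNA-seq libraries of sorted thymocytes, the developing T cells of the thymus. The members were all protein-coding genes whose symbol starts with Nduf followed by a, b, c, s or v and a number, Uqcr, Atp5, mt- or Cox followed by a number from 4 to 8, together with Sdha, Sdhb, Sdhc, Sdhd and Cyc1. The rule used symbols only and found 99 members among 35896 genes, of which 86 are encoded in the nucleus and 13 in the mitochondrial genome. By complex, the nuclear members are 37 genes of complex I, 4 of complex II, 9 of complex III, 18 of complex IV and 18 of complex V, and the mitochondrial members are 7, 0, 1, 3 and 2. A filter on low counts kept 94 members among 13749 genes, namely 81 nuclear and all 13 mitochondrial ones. The 5 members not tested were Ndufa4l2, Cox7b2, Cox8b, Cox8c and a second gene identifier annotated as Atp5o.

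The study asked how loss of the RNA-binding protein Arpp21 changes the RNA of early CD4- CD8- thymocytes. Cells of the DN2 stage and of the later DN3 stage were sorted by flow cytometry from wild-type (WT) mice and from mice without full-length Arpp21 (Arpp21-/-, KO in the plots), all labelled C57BL/6J. There were 3 DN2 WT, 2 DN2 Arpp21-/-, 3 DN3 WT and 3 DN3 Arpp21-/- libraries. The knockout is 1 germline mouse line, made in C57BL/6N embryos per the methods, in which exon 5 was removed by CRISPR-Cas9, so every cell and not only thymocytes carries the deletion. Only the long isoform is lost, and the study reports raised levels of a short Arpp21 protein in Arpp21-/- thymocytes. The mice were of both sexes and of different ages, and the labels give no age, sex or litter per library. Because the labels do not say which libraries came from separate mice, p-values measure the spread between these libraries, which may be partly technical.

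Oxidative phosphorylation makes ATP at the inner mitochondrial membrane. Complex I and complex II pass electrons from NADH and succinate to ubiquinone, complex III passes them on to cytochrome c, complex IV gives them to oxygen, and complex V, the ATP synthase, uses the proton gradient that complexes I, III and IV build up. Complex II is made of nuclear products only, whereas the other complexes join nuclear subunits with core subunits that are transcribed inside the organelle as long polycistronic RNAs and cut apart. Early thymocytes draw on both glycolysis and respiration.

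Near-identical copies of some members lie elsewhere in the nuclear genome, and reads of such stretches can be assigned to either locus. For the mitochondrial members 16 annotated copies were found, 7 of them in a run on chromosome 1 from 24611535 to 24616197 of GRCm38. The copy of mt-Co1 in that run is Gm29216, an unprocessed pseudogene at chr1:24615706-24616197 on the minus strand, which matches mt-Co1 at 99.8% over 483 nt. The lines below give the 30 bases where the single mismatch lies, in capitals, to show how little separates the mitochondrial gene (chrM:5328-6872, plus strand) from its nuclear copy. They are bases 1063 to 1092 of the mt-Co1 transcript and bases 10 to 39 of Gm29216.

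mt-Co1: ggaAttgttttatccaactcatcccttgac
Gm29216: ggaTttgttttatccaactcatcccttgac

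Gm29216 held 28.5%, 35.2% and 33.3% of the counts of mt-Co1 and Gm29216 together in the DN2 WT libraries and 28.1%, 32.6% and 30.9% in the DN3 WT libraries. All 16 copies together took between 4.40% and 9.23% of the mitochondrial counts of a library. For the nuclear members 98 copies of 36 members took between 1.11% and 1.38%. The nuclear member with the largest part of its counts on such a partner was Atp5g2, a gene for the ring-forming c subunit of ATP synthase, whose processed pseudogene Gm10175 on chromosome 7 is identical to it over 645 nt. Gm10175 held between 58.6% and 73.3% of their joint counts, so the level of Atp5g2 is uncertain. The same holds for Ndufb4, an accessory subunit of complex I, whose processed pseudogene Ndufb4c on chromosome 15 is identical to it over 390 nt and held between 47.9% and 55.8% of their joint counts.

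Promoter windows of RefSeq (GRCm38.p6), from 250 bases before to 50 bases after a start site, were on hand for 69 of the 86 nuclear members, and 66 of these were tested genes with 71 windows. Nuclear respiratory factor 1 is a transcription factor known for binding promoters of respiratory genes. Its 10-base palindrome was found in 5 of the 71 windows (7.04%) and in 2.03% of 12931 windows of all tested protein-coding genes. The lines below show these 5 sites with 10 flanking bases on each side, 5′ to 3′ on the gene's strand and with the palindrome in capitals, because they are the members whose windows hold the full motif.

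Atp5g2: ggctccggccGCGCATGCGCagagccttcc
Atp5k: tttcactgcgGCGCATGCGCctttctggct
Cox6a1: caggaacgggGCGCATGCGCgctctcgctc
Ndufa11: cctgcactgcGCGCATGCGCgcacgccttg
Uqcrc1: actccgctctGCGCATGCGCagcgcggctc

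They lie at chr15:102671070-102671099 (minus strand), chr5:108434430-108434459 (minus), chr5:115349101-115349130 (minus), chr17:56717692-56717721 (plus) and chr9:108936668-108936697 (plus). The motif started 42, 50, 162 and 60 bases before the start site in the first 4 genes and at base 31 after it in Uqcrc1. With its sixth base free, which includes the full motif, the shares were 25.4% of member windows and 9.71% of all windows. The YY1 motif AAGATGGC was in 14.1% and 4.32%, the ETS motif CCGGAAG in 22.5% and 17.1%, and CCAAT in 42.3% and 37.9%. The GC box GGGCGG went the other way, with 39.4% and 60.2%, and TATAAA was in 8.45% and 7.64%. Both strands were searched, and a match is only a match of letters.

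Libraries held between 14531762 (DN3 Arpp21-/- replicate 3) and 63109504 (DN2 Arpp21-/- replicate 2) estimated counts, and the other 9 between 17170300 and 25040253. DN2 Arpp21-/- replicate 2 and DN3 Arpp21-/- replicate 3 stood apart from the rest. Their TMM scaling factors were 0.600 and 0.861, against 1.03 to 1.11 in the other 9, and their transcripts were shifted towards short genes as described below. In DN2 Arpp21-/- replicate 2 the summed level of 8 DN2 marker genes was 418 CPM (counts scaled by library size and TMM factor), against 2435 to 3181 CPM in DN2 WT, and Kit, the receptor that marks DN2 cells, was at 66.6 CPM against 446 to 512 CPM. Il2ra, the largest part of that sum, was at 144 CPM in this replicate against 1038 to 1672 CPM in DN2 WT. Mpzl2, also on the DN2 list, went the other way, at 40.3 CPM against 0.843 to 31.5 CPM, while the other genes listed were below all DN2 WT libraries. The summed level of 7 myeloid markers in DN2 Arpp21-/- replicate 2 was 357 CPM against 114 to 159 CPM in DN2 WT. Of these, Tyrobp, Lyz2 and Fcer1g were above all DN2 WT libraries, at 203, 105 and 47.9 CPM. Csf1r (0.0535 CPM) and Itgam (0 CPM) were below all of them, and S100a8 and S100a9 were within their range. The 6 erythroid markers summed to 1576 CPM in that replicate, against 398 to 489 CPM in DN2 WT. In DN3 Arpp21-/- replicate 3 the summed level of 8 DN3 marker genes was 2841 CPM, against 4382 to 4921 CPM in DN3 WT. Replicate 2 was also below that range, at 4096 CPM, and replicate 1 within it, at 4545 CPM. Rag1, which is on that list, was at 413, 335 and 236 CPM in DN3 Arpp21-/- against 867 to 973 CPM in DN3 WT. In replicate 3 Il2ra, Cd3e, Notch3, Dtx1 and Rag1 were below all DN3 WT libraries, while Ptcra (605 CPM), Rag2 (200 CPM) and Hes1 (96.0 CPM) were above. The myeloid sum there was 47.6 CPM against 29.9 to 36.8 CPM in DN3 WT, and the erythroid sum 159.8 CPM against 48.8 to 96.7 CPM. The DN2 list does not separate the stages, with 2756 to 3318 CPM in DN3 WT. Ptcra, the pre-TCR alpha chain that appears in DN3 cells, does: it was at 365 to 605 CPM in all DN3 libraries, at 1.00 to 2.96 CPM in 4 of the 5 DN2 libraries and at 11.7 CPM in DN2 Arpp21-/- replicate 2. The gene sum of Arpp21 does not check the knockout, since the deletion takes out 1 exon and leaves the rest of the RNA. Arpp21 was at 386, 336 and 312 CPM in DN3 WT and at 335, 221 and 142 CPM in DN3 Arpp21-/-.

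Subunit genes were strongly expressed, and the share of a library that they took differed between nuclear and mitochondrial members. The nuclear members took 1.72%, 2.09% and 1.82% of the counts in DN2 WT and 1.84%, 2.00% and 1.85% in DN3 WT, ranges that overlap. The mitochondrial members took 0.564%, 0.681% and 0.707% in DN2 WT and 1.10%, 1.26% and 1.06% in DN3 WT, with no overlap. The ratio of mitochondrial to nuclear counts was therefore 0.348 ± 0.0357 (SD, n = 3) in DN2 WT and 0.600 ± 0.0281 (SD, n = 3) in DN3 WT.

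In Arpp21-/- libraries the shares depended on the library. Nuclear members took 1.79% in DN2 Arpp21-/- replicate 1 but 4.52% in replicate 2, and 1.81%, 2.07% and 3.17% in DN3 Arpp21-/-. Mitochondrial members took 0.407% and 1.60% in DN2 Arpp21-/- and 1.47%, 1.25% and 1.91% in DN3 Arpp21-/-. The highest share of each group, on either side, was that of the library that stood apart. Without these libraries, the ratio of mitochondrial to nuclear counts was 0.228 in the remaining DN2 Arpp21-/- library, below all DN2 WT libraries, and 0.815 and 0.603 in DN3 Arpp21-/-, of which the first was above the DN3 WT range of 0.573 to 0.629.

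**Figure D1:**
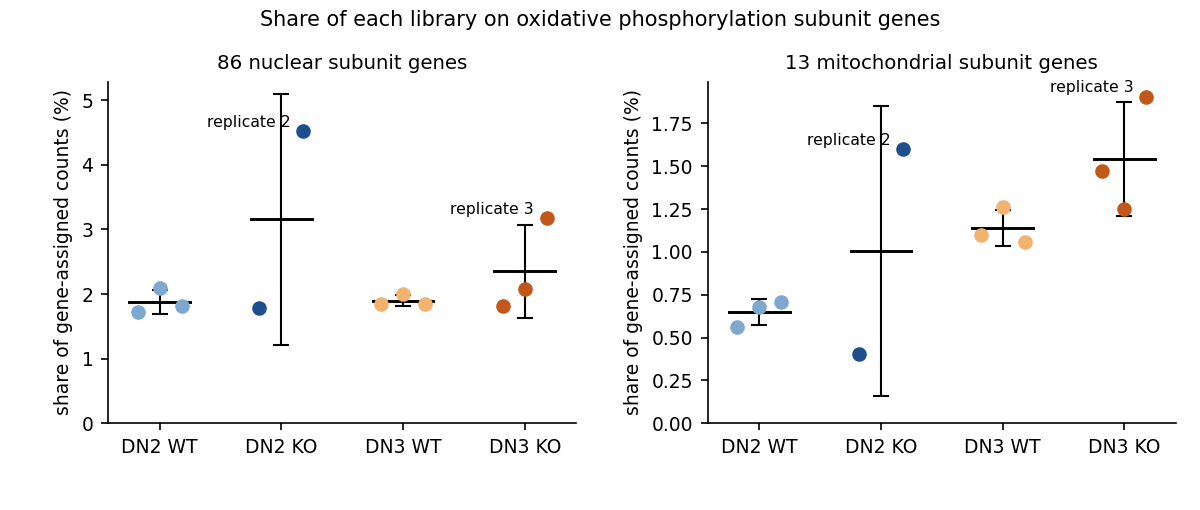
Share of gene-assigned counts, in percent, on the 86 nuclear (left) and 13 mitochondrial (right) subunit genes, 1 point per library, with the group mean and SD as bars. Mitochondrial shares of DN3 WT (1.06% to 1.26%) lie above those of DN2 WT (0.564% to 0.707%), and replicate 2 of DN2 KO (4.52% nuclear) and replicate 3 of DN3 KO (3.17% nuclear) lie above their groups.

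Levels between genes were compared in TPM, which divides by transcript length, as means of the 3 DN3 WT libraries. Mitochondrial members ran from 147 TPM for mt-Nd5 to 9038 TPM for mt-Co3, and mt-Atp6 (4979 TPM) and mt-Atp8 (3984 TPM) followed mt-Co3. Among nuclear members, to which the levels that follow refer, complex V had the one with the highest level, Atp5b, the catalytic β subunit, at 3013 TPM, and also Atp5s, a factor associated with the synthase, at 18.8 TPM. In complex I the levels ran from 77.4 TPM for Ndufs3, a core subunit of the arm that faces the matrix, to 648 TPM for Ndufa4, which more recent work places with complex IV. Complex II ran from Sdhc, a membrane anchor, at 193 TPM to Sdhb, the iron-sulfur subunit, at 483 TPM. Complex III ran from Uqcrc2, a core protein, at 216 TPM to Uqcr11, a small accessory subunit, at 848 TPM. Complex IV ran from Cox4i2 at 0.151 TPM to its common counterpart Cox4i1, a nuclear subunit close to the catalytic core, at 1102 TPM. Medians of the tested nuclear members of complexes I to V were 319, 348, 543, 539 and 664 TPM.

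The comparison of DN3 with DN2 in WT asks how these genes move with normal development. Of the 13 mitochondrial members 2 rose from DN2 to DN3, mt-Co1 and mt-Co2, and none fell. No nuclear member was called in either direction. Over all genes, edgeR with Benjamini-Hochberg adjustment called 1.87% higher and 2.25% lower. The median log2 fold change was 1.09 over mitochondrial members, −0.08 over nuclear members and 0.01 over all genes tested. An unadjusted p under 0.05 was reached by 7 mitochondrial and 2 nuclear members, and DESeq2 called 3 mitochondrial members higher and 2 nuclear members lower, beside 4.15% of all genes higher and 4.51% lower.

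mt-Co1 encodes the catalytic subunit of cytochrome c oxidase, where oxygen is reduced. It was at 397, 413 and 516 CPM in DN2 WT and at 1251, 1569 and 1385 CPM in DN3 WT, so that the lowest DN3 library was far above the highest DN2 library. Its log2 fold change was 1.66 (SE 0.32), with an adjusted p of 0.0166 by edgeR, and 1.63 with an adjusted p of 0.0311 when the counts of Gm29216 and its other copies were added to it. mt-Co2 encodes the subunit that takes electrons from cytochrome c. It was at 295, 300.2 and 369 CPM in DN2 WT and at 915, 1102 and 949 CPM in DN3 WT, again with no overlap. Its log2 fold change was 1.62 (SE 0.36), with an adjusted p of 0.0344 by edgeR. Leaving out any 1 of the 6 WT libraries ended both calls in edgeR, with adjusted p up to 0.0933 for mt-Co1 and up to 0.144 for mt-Co2. Without the libraries that stood apart, neither of which belongs to this comparison, the estimated spread fell and 11 of 13 mitochondrial members, all but mt-Co3 and mt-Nd3, were called higher, against a background of 6.98% higher and 8.38% lower among 14519 genes.

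mt-Cytb, which encodes cytochrome b of complex III, was at 319, 276 and 352 CPM in DN2 WT and at 877, 953 and 855 CPM in DN3 WT. Its log2 fold change of 1.50 (SE 0.38) did not pass in all 11 libraries, with an adjusted p of 0.0577 by edgeR, but passed without both outlying libraries, with 7.56e-05. The 7 mitochondrial genes for complex I encode its membrane arm, which pumps protons, and their log2 fold changes ranged from −0.16 to 1.48. mt-Nd1 was at 266, 194 and 251 CPM in DN2 WT and at 529, 545 and 438 CPM in DN3 WT. mt-Nd4l was at 10.3, 5.55 and 6.98 CPM in DN2 WT and at 21.0, 21.4 and 21.4 CPM in DN3 WT. These genes, like mt-Nd2, mt-Nd4, mt-Nd5 and mt-Nd6, did not overlap between the stages, while none of them passed the test in all 11 libraries.

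The mitochondrial members did not move alike. mt-Atp8, mt-Atp6, mt-Co3 and mt-Nd3 follow each other among the protein-coding genes of the mitochondrial genome. Their log2 fold changes were 0.43, 0.54, 0.39 and −0.16, with a median of 0.41 against 1.29 for the other 9, a grouping made after the values were seen. mt-Co3, the third catalytic core subunit of complex IV, was at 2244, 3520.2 and 3193 CPM in DN2 WT and at 3813, 4398 and 3549.6 CPM in DN3 WT. It alone took 47.9% of mitochondrial CPM in DN2 WT and 37.3% in DN3 WT. mt-Nd3 was at 119, 227 and 186 CPM in DN2 WT and at 159, 181 and 135 CPM in DN3 WT and was the only mitochondrial member whose groups overlapped. The ratio of mt-Co3 to mt-Cytb was 7.03, 12.8 and 9.07 in DN2 WT and 4.35, 4.61 and 4.15 in DN3 WT. In all, 12 of 13 mitochondrial members were higher in every DN3 WT library than in any DN2 WT library and 0 lower, against 17.5% of all genes higher and 17.3% lower by the same reading.

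Marker sums differed between the same groups. The 7 myeloid markers summed to 114 to 159 CPM in DN2 WT and to 29.9 to 36.8 CPM in DN3 WT. Csf1r, Tyrobp, Itgam, Fcer1g and Lyz2 were lower in every DN3 WT library, with Lyz2 still at 25.5 to 34.2 CPM against 43.5 to 51.9 CPM. S100a8 and S100a9 overlapped between the stages. The 6 erythroid markers summed to 398 to 489 CPM and to 48.8 to 96.7 CPM. Their part in the mitochondrial difference was not tested. In such bulk libraries fewer cells of a type and less RNA per cell cannot be told apart, and the same holds for more mitochondria per cell and more RNA per mitochondrion.

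**Figure D2:**
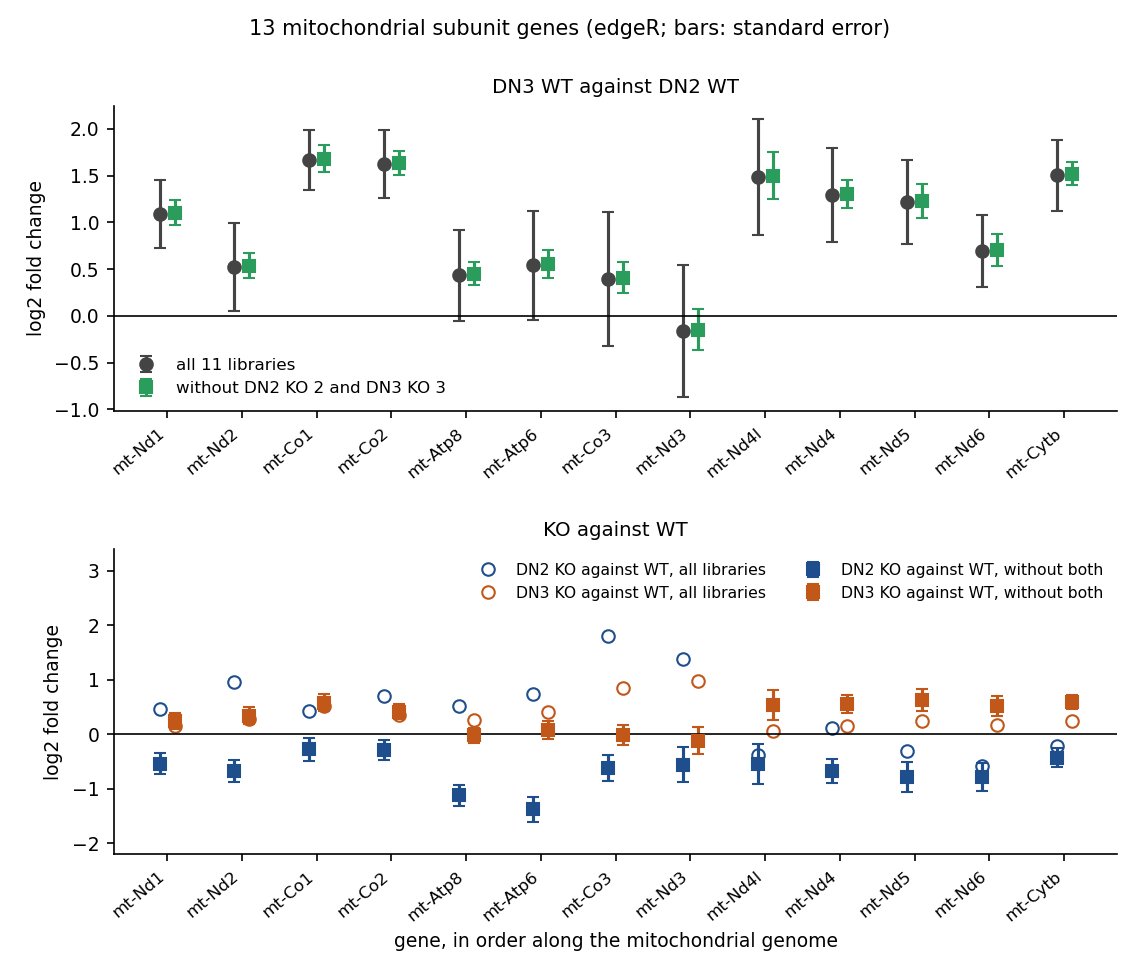
Log2 fold changes of the 13 mitochondrial subunit genes in their order on the mitochondrial genome, fitted by edgeR with standard errors as bars. The upper panel shows DN3 WT against DN2 WT, from −0.16 (mt-Nd3) to 1.66 (mt-Co1) in all 11 libraries; the lower panel shows KO against WT, where without both outlying libraries all 13 DN2 values are below 0 and 10 of 13 DN3 values are above 0.

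Among nuclear members the differences between stages were small apart from isoforms of complex IV. The lowest log2 fold changes were those of Cox4i2, Cox6a2 (−1.81, SE 0.51, adjusted p = 0.0904 by edgeR) and Ndufa4 (−0.59, SE 0.58, adjusted p = 0.875). The highest were those of Uqcrq (0.36), Cox7a1 (0.33) and Cyc1 (0.29), and none of these passed. Ndufa4 was at 241, 333 and 280.4 CPM in DN2 WT and at 183, 202 and 182 CPM in DN3 WT. Cyc1, cytochrome c1 of complex III, was at 215, 246 and 226 CPM in DN2 WT and at 271, 295 and 278 CPM in DN3 WT. Atp5b was at 2185, 2424 and 2114 CPM in DN2 WT and at 2697, 2754 and 2452 CPM in DN3 WT. By the reading of whole groups, 3 of 81 nuclear members were higher in every DN3 WT library (Atp5b, Cyc1 and Cox7a1) and 7 lower (Cox4i2, Cox6a2, Ndufa4, Atp5j, Cox7b, Uqcrb and Ndufb8), which is 3.70% and 8.64% of them beside the 17.5% and 17.3% of all genes. Without both outlying libraries Cox6a2 and Ndufa4 passed as lower, with log2 fold changes of −1.80 and −0.57 and adjusted p of 0.0244 and 0.0333 by edgeR.

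Several complex IV subunits have a second gene known from particular tissues. Cox4i2, the form known from lung and hypoxia, was at 3.72, 1.19 and 1.51 TPM in DN2 WT and at 0, 0.105 and 0.348 TPM in DN3 WT. Its counts summed to 64 over the DN2 WT libraries, to 4 over DN3 WT and to 0 over DN3 Arpp21-/-. The fitted log2 fold change between the WT stages was −3.83 (SE 1.17, adjusted p = 0.147 by edgeR), and with so few counts it depends on the prior count of the fit. Between the DN3 groups the fit gave a log2 fold change of −3.57, which was not read as a size because the counts were 4 and 0. Even in DN2 WT, Cox4i2 made up 0.219% of the summed TPM of Cox4i1 and Cox4i2.

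Cox6a2, the heart and skeletal muscle form, was at 26.2, 15.5 and 16.0 TPM in DN2 WT and at 11.5 and 3.48 TPM in DN2 Arpp21-/-. It was at 9.73, 4.44 and 3.78 TPM in DN3 WT and at 3.93, 2.71 and 0.959 TPM in DN3 Arpp21-/-. The WT stages did not overlap, and each Arpp21-/- group had a lower mean than its WT group. In the edgeR fit Cox6a2 had the lowest log2 fold change of the nuclear members in DN2 Arpp21-/- against WT (−0.91, SE 0.57, adjusted p = 0.453) and the lowest apart from Cox4i2 in DN3 (−1.13, SE 0.51, adjusted p = 1), where the unadjusted value just missed the threshold.

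Cox6b2, the testis form, was nearly level, with WT means of 70.2 TPM in DN2 and 66.7 TPM in DN3 and Arpp21-/- means of 55.8 and 56.3 TPM, and made up 5.62% to 8.84% of the sum with Cox6b1. Cox7a1, the other muscle form, was at 9.47 ± 1.51 TPM in DN2 WT and at 13.3 ± 2.08 TPM in DN3 WT (SD, n = 3 each). Cox7b2 and Cox8b had no counts in any library, which allows up to 3 counts per library, and Cox8c had 1 count in all, in DN3 Arpp21-/-. Ndufa4l2, a hypoxia-induced relative of Ndufa4, had 3 counts in all, also in DN3 Arpp21-/-.

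**Figure D3:**
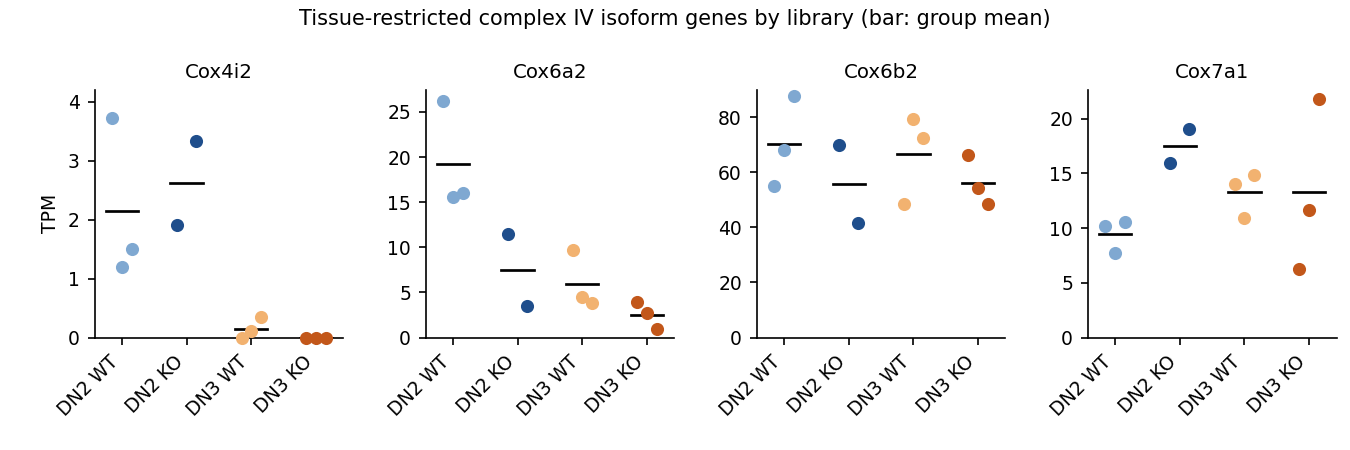
TPM of 4 complex IV isoform genes known from particular tissues, 1 point per library, with the group mean as a bar and a linear axis from 0 in each panel. Means in DN2 WT, DN3 WT and DN3 KO are 2.14, 0.151 and 0 TPM for Cox4i2 and 19.2, 5.98 and 2.53 TPM for Cox6a2, and the group means of Cox6b2 lie between 55.8 and 70.2 TPM.

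The c subunit of ATP synthase is encoded by 3 nuclear genes that give the same mature protein. Atp5g3 provided between 48.0% and 54.1% of their summed TPM in every library, Atp5g1 between 36.7% and 44.3% and Atp5g2, whose reads may be split with Gm10175, between 5.24% and 10.5%. Atp5g1 took 36.7%, 40.4% and 40.1% in DN2 WT and 43.8%, 43.3% and 43.5% in DN3 WT, without overlap. Atp5g2 took 10.5%, 9.82% and 8.82% in DN2 WT and 5.41%, 7.23% and 7.38% in DN3 WT, also without overlap. The 3 shares are parts of the same sum, so these shifts are not separate results. With its copies added, Atp5g2 overlapped between the stages, at 194, 294 and 226 CPM in DN2 WT and at 187, 238 and 188 CPM in DN3 WT. None of the 3 genes passed the test between stages, with edgeR log2 fold changes of 0.28, −0.41 and 0.09 for Atp5g1, Atp5g2 and Atp5g3 and adjusted p from 0.893 to 1.

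Loss of Arpp21 was compared with WT first in DN3. No subunit gene was called in either direction, against 0.00727% of all genes (1 of 13749), and none reached an unadjusted p under 0.05, which 214 of all genes did. DESeq2 also called 0 members, against 0.116% of all genes. The study, whose methods name no test, reported more differentially expressed genes in DN3 at an adjusted p under 0.05, most of them lower in Arpp21-/-. The median log2 fold change was 0.50 over nuclear members, with 76 of 81 above 0, 0.27 over mitochondrial members, with 13 of 13 above 0, and −0.01 over all genes. The highest nuclear values were those of the accessory subunits Ndufa6 (0.78), Ndufb4 (0.77) and Uqcrh (0.77), and the lowest, beside Cox4i2, those of Cox6a2 (−1.13) and Sdha (−0.06).

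The nuclear values in DN3 rested on 1 library. Ndufa6 was at 82.2, 99.4 and 84.2 CPM in DN3 WT and at 86.1, 97.6 and 273 CPM in DN3 Arpp21-/-, where replicate 3 alone was outside the WT range. Uqcrh, the hinge protein of complex III, was at 154, 189 and 152 CPM and at 167, 178 and 498 CPM. Ndufb4 was at 40.7, 47.1 and 47.5 CPM and at 43.0, 50.6 and 138 CPM, and with its copies added at 92.2, 101.4 and 91.1 CPM and at 90.3, 103 and 277 CPM. Without the libraries that stood apart the nuclear median was 0.01, with 45 of 81 above 0, and the values of Ndufa6, Ndufb4 and Uqcrh were 0.05, 0.05 and 0.07. In that fit 0.0344% of all genes and 0 members were called.

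No mitochondrial member was called in DN3 Arpp21-/- with or without these libraries. Without them the median was 0.42, with 10 of 13 above 0, and 7 of 13 reached an unadjusted p under 0.05 against 601 of 14519 genes, where 0 of 13 had done so in all libraries. mt-Cytb was at 1501, 1204 and 467 CPM in DN3 Arpp21-/- against 877, 953 and 855 CPM in DN3 WT, so that replicates 1 and 2 were above the WT range and replicate 3 below it. Its log2 fold change was 0.24 (SE 0.37, adjusted p = 1 by edgeR) in all libraries and 0.59 (SE 0.13, adjusted p = 0.308) without both. mt-Co1 was at 2351, 1856 and 1823 CPM against 1251, 1569 and 1385 CPM in DN3 WT, and mt-Co2 at 1432, 1219.8 and 1143 CPM against 915, 1102 and 949 CPM. These and the nuclear Ndufv3, an accessory subunit of the NADH-binding arm at 92.4, 92.6 and 134 CPM against 76.4, 86.6 and 79.4 CPM, were the only members whose DN3 groups did not overlap, all 3 higher in Arpp21-/-. Over all genes 4.96% were higher and 5.58% lower by that reading.

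For mt-Atp8, mt-Atp6, mt-Co3 and mt-Nd3 the median log2 fold change in DN3 Arpp21-/- against WT was 0.63 in all libraries, against 0.24 for the other 9 mitochondrial members. Without both outlying libraries the order was the opposite, with −0.01 against 0.54. mt-Co3 was at 3886 and 3923 CPM in replicates 1 and 2, within the WT range of 3549.6 to 4398 CPM, and at 13460.2 CPM in replicate 3. mt-Nd3 was at 136, 158 and 642 CPM, where replicate 3 was again the one outside the WT range of 135 to 181 CPM. In the same replicate 3, mt-Nd4l was at 4.03 CPM and mt-Nd4 at 82.0 CPM, below the WT minima of 21.0 and 193 CPM. The ratio of mt-Co3 to mt-Cytb in DN3 Arpp21-/- was thus 2.59, 3.26 and 28.8.

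In DN2, where Arpp21-/- has 2 libraries, the result rested on which of them was used. No subunit gene was called in all 11 libraries, against 0% of all genes, but 66 nuclear members and 1 mitochondrial member reached an unadjusted p under 0.05, as did 2019 of all genes. DESeq2 called 0 members and 0.276% of all genes. The median log2 fold change was 1.51 over nuclear members, with 77 of 81 above 0, 0.46 over mitochondrial members, with 9 of 13 above 0, and −0.06 over all genes. The highest were Ndufb8 (2.11, SE 0.74), Uqcr11 (2.04, SE 0.69) and Ndufb2 (1.98, SE 0.69), accessory subunits of complexes I and III, each with an adjusted p of 0.336 by edgeR.

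The per-library values show the split. Ndufb8 was at 233, 268 and 252 CPM in DN2 WT and at 216 and 1952 CPM in DN2 Arpp21-/-. Uqcr11 was at 145, 214 and 177 CPM and at 165 and 1302 CPM. Ndufb2 was at 100.2, 133 and 115 CPM and at 110.4 and 804 CPM. Replicate 1 was just below the WT values for Ndufb8 and within them for the other 2 genes, and replicate 2 was far above them for all 3. With replicate 2 as the sole DN2 Arpp21-/- library, 74 nuclear members were called higher and 1, Ndufa10, lower, and 8 mitochondrial members were called higher, while 21.0% of all genes were called higher and 25.3% lower. That fit assumes that the lone library varies like the other groups. Without both outlying libraries, 0 members and 0% of all genes were called, the nuclear median was −0.09, and Ndufb8, Uqcr11 and Ndufb2 were at −0.20, −0.09 and −0.05.

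The mitochondrial members of the remaining DN2 Arpp21-/- library were below WT. Their median without both outlying libraries was −0.61, with 13 of 13 below 0, and 9 of 13 reached an unadjusted p under 0.05, against 609 of 14519 genes, while none passed after adjustment. The strongest differences were those of the membrane subunits of ATP synthase. mt-Atp6, which forms the proton path, was at 1128, 1276 and 1340.1 CPM in DN2 WT and at 475 CPM in DN2 Arpp21-/- replicate 1, and at 3717 CPM in replicate 2. Its log2 fold change without both was −1.38 (SE 0.23, adjusted p = 0.395 by edgeR). Part of the gap in mt-Atp6 lay with its identical copy Gm10925 on chromosome 1, which held 22.8% of their joint counts in replicate 1 and 2.58% to 3.49% in DN2 WT. mt-Atp8 was at 153, 130.3 and 155 CPM in DN2 WT and at 66.3 and 353 CPM in DN2 Arpp21-/-, with −1.12 (SE 0.19, adjusted p = 0.395 by edgeR) without both. mt-Nd6, the mitochondrial member on the minus strand, was at 23.5, 22.1 and 27.1 CPM and at 13.8 and 18.5 CPM, and was the 1 mitochondrial member with both Arpp21-/- libraries below all WT libraries. Of the 81 nuclear members, 3 were above WT in both Arpp21-/- libraries and 1, Cox6a2, below, while 7.52% of all genes were higher and 8.27% lower by that reading.

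The interaction of stage and genotype asks whether the Arpp21-/- difference in DN3 is unlike that in DN2. No member was called, against 0% of all genes, and 1 nuclear member and 372 of all genes reached an unadjusted p under 0.05. DESeq2 called 0 members and 0.0727% of all genes. The median was −0.95 over nuclear members, −0.26 over mitochondrial members and 0.01 over all genes. The lowest nuclear values, beside Cox4i2, were those of Cox7a1 (−1.44) and Ndufa11 (−1.41), and the highest those of Ndufa10 (0.67), Ndufs1 (0.24) and Sdha (0.17), all with an adjusted p of 0.965 by edgeR. Without both outlying libraries 0 members and 0% of all genes were called, but the medians turned to 0.10 and 1.02, with 13 of 13 mitochondrial members above 0 and 11 of 13 at an unadjusted p under 0.05. With DN2 Arpp21-/- replicate 1 left out, 1 member was called higher and 46 lower, beside 16.1% of all genes higher and 8.94% lower.

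**Figure D4:**
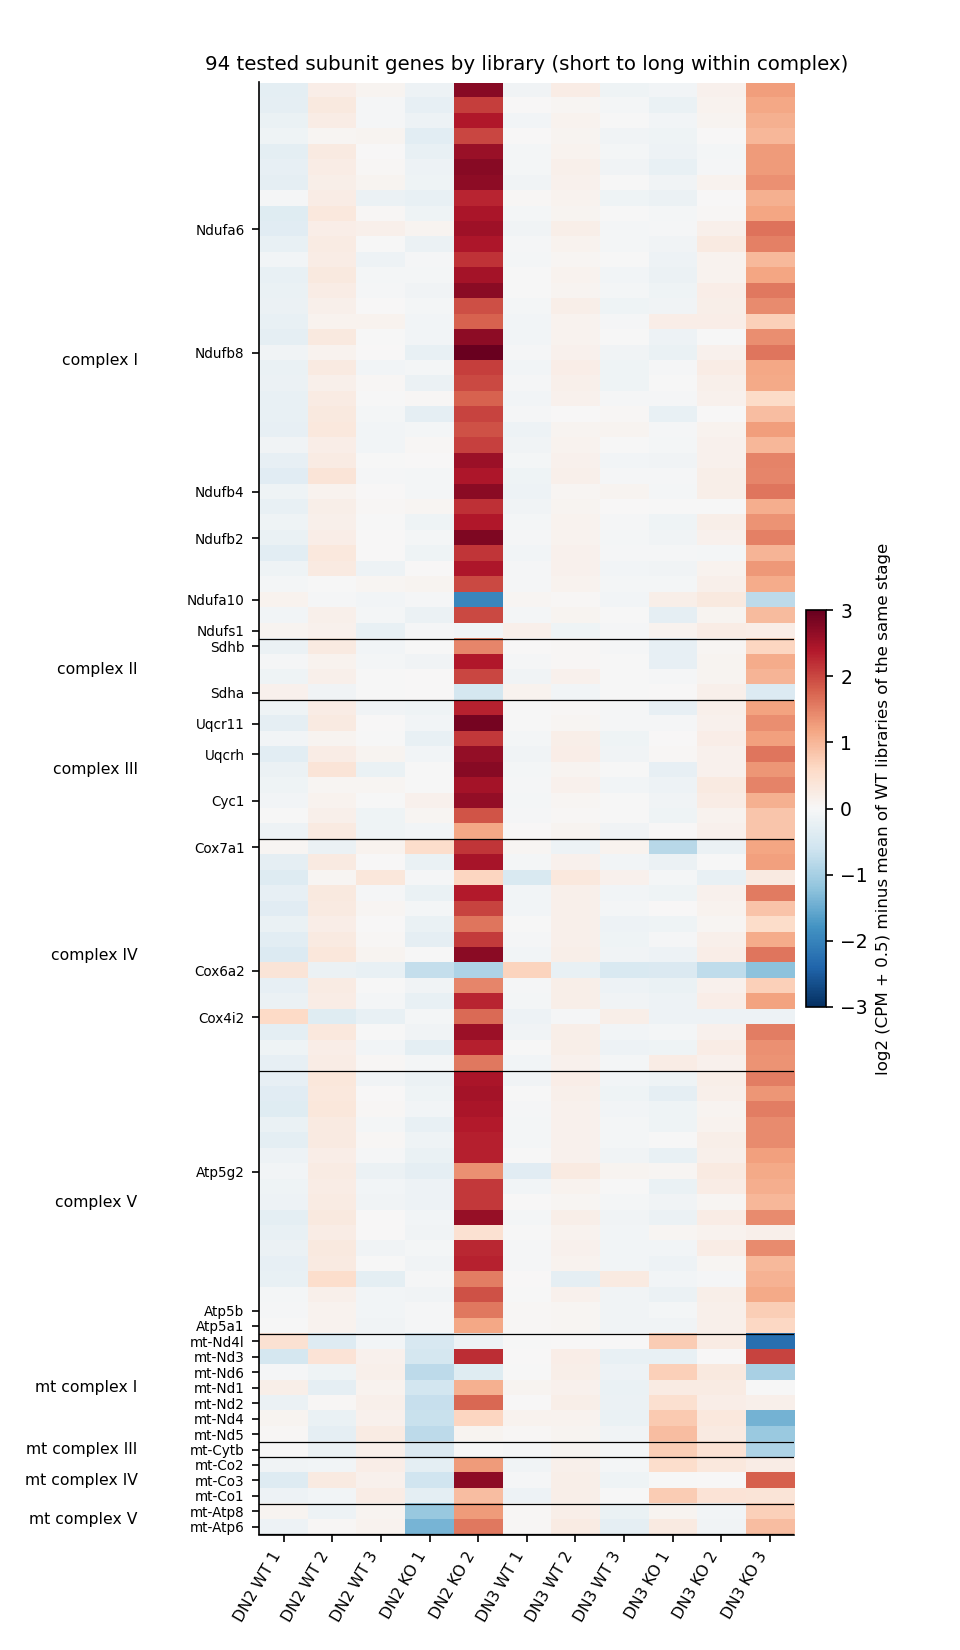
Difference of each library from the mean of the WT libraries of its stage, as log2(CPM + 0.5), for the 94 tested members, ordered by complex and by transcript length within it, with some of the named members labelled (red above, blue below, scale from −3 to 3). The column of DN2 KO replicate 2 is red for almost every nuclear member except Ndufa10, Sdha, Ndufs1 and Cox6a2, that of DN3 KO replicate 3 shows a fainter version of the same, and the mitochondrial rows of DN2 KO replicate 1 are blue.

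Transcript length moved with these shifts. The tested nuclear members are short, with a median of 730 nt (366 to 2873 nt), and 57 of 81 are under 1000 nt, while all tested genes have a median of 2615 nt and 1549 of 13749 are under 1000 nt. In DN2 Arpp21-/- replicate 2 the median deviation of all genes from the mean of the WT libraries of the stage, on the log2 scale, was 1.10 for genes under 500 nt, 1.46 for 500 to 1000 nt, 0.88 for 1000 to 2000 nt, −0.34 for 2000 to 4000 nt and −1.48 for longer genes. In DN3 Arpp21-/- replicate 3 these medians were 0.39, 0.72, 0.39, −0.17 and −0.79. Nuclear members exceeded the genes of their own length, with 2.44, 2.30, 2.07 and 0.54 in the former and 1.26, 1.23, 1.08 and 0.41 in the latter over the first 4 classes, of 9, 48, 20 and 4 members. No member is 4000 nt or longer.

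The same ordering stood in the fits. For DN2 Arpp21-/- against WT the nuclear medians of the first 4 length classes were 1.66, 1.53, 1.36 and 0.31 against 0.92, 1.04, 0.56 and −0.17 for all genes, and for DN3 they were 0.56, 0.53, 0.45 and 0.21 against 0.19, 0.35, 0.18 and −0.04. Cytosolic ribosomal protein genes, which are as short as the members (median 751 nt), had medians of 1.63, 1.28, 1.22 and 0.89 in DN2 over the same classes. An offset for each library's trend over transcript length lowered the nuclear median from 1.51 to 0.51 in DN2 and from 0.50 to 0.21 in DN3, and took the mitochondrial median from 0.46 to −0.39 in DN2 and from 0.27 to 0.13 in DN3. The mitochondrial median for DN3 against DN2 in WT was 1.16 under that offset against 1.09 without it, where mitochondrial members have a median length of 784 nt. In the stage comparison all genes under 500 nt had a median of −0.09.

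Complex II holds both short and long members. Sdha, the flavoprotein of complex II that oxidises succinate, was at 639, 543 and 578 CPM in DN2 WT and at 592 and 407 CPM in DN2 Arpp21-/-. Its partners were higher in replicate 2: Sdhb at 754 CPM against 243 to 328 CPM in DN2 WT, and Sdhd, a membrane anchor, at 1582 CPM against 286 to 323 CPM. The log2 fold changes of Sdha, Sdhb, Sdhc and Sdhd were −0.23, 0.89, 1.33 and 1.63 in all libraries and 0.03, −0.01, 0.03 and −0.08 without both outlying ones, and none passed in either fit. Of the 4 members of at least 2000 nt, Sdha and Ndufs1 were not above WT in DN2 Arpp21-/- replicate 2, while Sdhc, at 636 CPM against 144 to 175 CPM, and Atp5a1, the α subunit of ATP synthase, at 1790.2 CPM against 741 to 865 CPM, were. Ndufs1, the largest iron-sulfur subunit of complex I, was at 169, 175 and 136 CPM and at 154 and 150.3 CPM. Ndufa10, an accessory subunit, was at 132, 118 and 116 CPM and at 119 and 30.8 CPM. Ndufs1 and Ndufa10 were thus inside or below the WT range in the library where most members were several times above it.

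**Figure D5:**
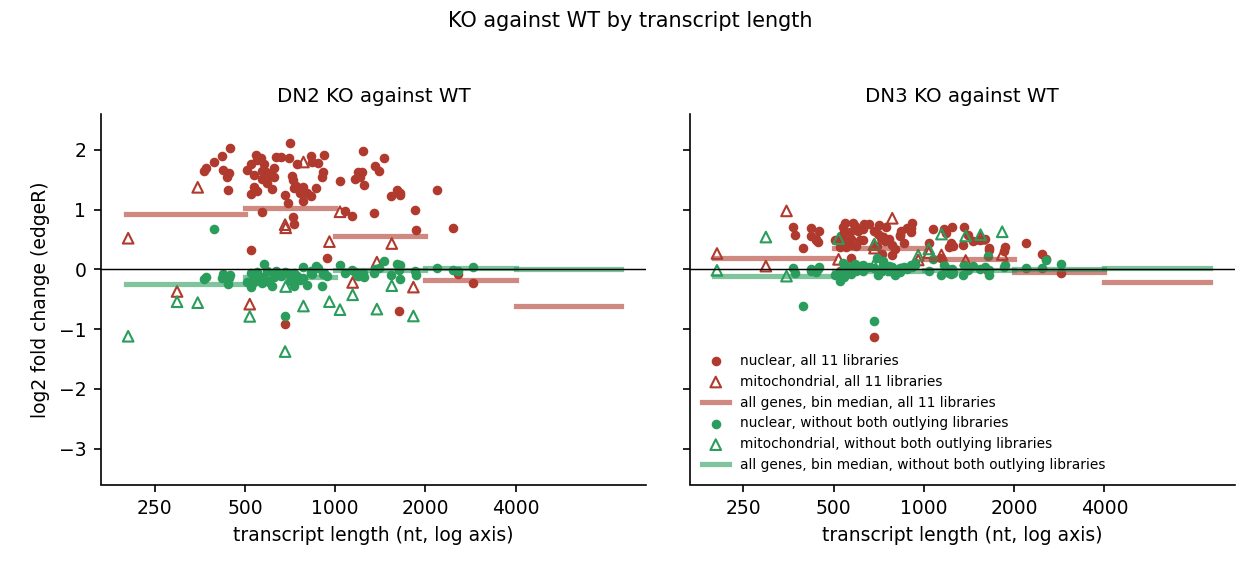
Log2 fold change (edgeR) of KO against WT against transcript length (log axis) in DN2 and DN3, for nuclear members (points), mitochondrial members (triangles) and the median of all genes in 5 length classes (bars), in all 11 libraries (red) and without both outlying libraries (green); Cox4i2 is not drawn. Red points of nuclear members lie around medians of 1.51 in DN2 and 0.50 in DN3 and drop with length, and green points lie around −0.09 and 0.01.

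Other genes of the same machinery were read from lists chosen with the members. In the comparison of Arpp21-/- with WT in DN3, 0 genes of each list were called by edgeR, and the medians were 0.35 for 52 assembly factors and electron carriers, 0.37 for 78 mitochondrial ribosomal proteins, 0.17 for 31 factors of mitochondrial DNA and RNA, −0.17 for 13 tested nuclear regulators of respiratory genes, 0.14 for 19 TCA cycle genes and 0.67 for 82 cytosolic ribosomal proteins. In DN2 the medians were 0.88, 1.16, 0.43, −0.72, 0.30 and 1.29, again with 0 called. Without both outlying libraries they lay between −0.0046 and 0.13 in DN3 and between −0.15 and 0.07 in DN2. Between the WT stages they were 0.10, 0.04, 0.10, 0.14, 0.05 and 0.06 with 0 called, beside 1.09 for the mitochondrial members.

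Within the lists, the genes with the lowest unadjusted p in DN3 were named by rule. Grsf1, which binds mitochondrial RNA, was at 9.54, 17.3 and 17.1 CPM in DN3 WT and at 14.5, 18.1 and 56.8 CPM in DN3 Arpp21-/-, with replicate 3 as the high one. Pnpt1, a mitochondrial RNA-degrading enzyme, was at 45.7, 43.3 and 40.3 CPM and at 51.3, 56.8 and 75.5 CPM, without overlap. Cox11, a copper chaperone for complex IV, had means of 9.36 ± 1.52 CPM in DN3 WT and 13.9 ± 3.22 CPM in DN3 Arpp21-/- (SD, n = 3 each). For Grsf1, Pnpt1 and Cox11 the edgeR fit gave log2 fold changes of 1.02 (SE 0.53), 0.51 (SE 0.27) and 0.57 (SE 0.38), each with an adjusted p of 1, and 0.14, 0.33 and 0.42 without both outlying libraries. Sdhaf4, an assembly factor of complex II, had 0.72, Mrpl32 and Mrpl1 of the mitochondrial ribosome 0.63 and 0.46, Esrra and Pprc1, regulators of mitochondrial genes, 0.64 and −0.56, the TCA cycle genes Suclg2 and Idh3a 0.38 and 0.32, and Rpl10a and Rpl3l of the cytosolic ribosome 0.74 and −1.20, all with an adjusted p of 1.

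Nnt, the mitochondrial transhydrogenase that C57BL/6J mice are known to carry in a deleted form, was detected in all 11 libraries. A level summed over a gene's transcripts does not show an internal deletion, and C57BL/6N, the substrain of the embryos in which the knockout was made, is known to carry the intact gene. In DN2 it was at 113, 151 and 165 CPM in WT and at 187 and 78.6 CPM in Arpp21-/-. In DN3 it was at 188, 149 and 158 CPM in WT and at 199.8, 244 and 138 CPM in Arpp21-/-. Its log2 fold changes between genotypes were −0.11 in DN2 and 0.23 in DN3, with adjusted p of 0.881 and 1 by edgeR.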

How the data were processed

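Libraries of sorted DN2 and DN3 thymocytes were made with SmartSeq V4 and Nextera and sequenced as paired ends. The methods state poly-A selection and the labels give total RNA as the molecule. Per the labels, the authors quantified transcripts of GRCm38 with kallisto 0.46. The deposited tables hold estimated counts, which are expected counts and need not be whole, TPM, in which the authors divided counts by effective length and scaled them to a fixed sum, and effective lengths in bases, another unit of the deposited tables.

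Estimated counts were summed per gene over transcripts matched to GENCODE M21 by identifier (116640 of 119414) and rounded. Transcripts not matched held 0.959% to 1.09% of counts and were left out. The filter filterByExpr was applied to the 4 groups, with 10 as its minimum count. Contrasts were tested two-sided with edgeR 4.0.16 (TMM, glmQLFit and glmQLFTest) in R 4.3.3, and p-values of the 13749 genes that passed were adjusted together after Benjamini and Hochberg, with 0.05 as the threshold. CPM are counts scaled by library size and TMM factor, and standard errors are the absolute log2 fold change over the square root of F. Depth was between 14531762 and 63109504 counts per library, and 3 counts came to between 0.0802 and 0.242 CPM. A length is the mean over a gene's transcripts weighted by counts, and 5 classes had edges at 500, 1000, 2000 and 4000 nt. Copies were found by aligning member transcripts to all others. Scripts were tested on simulated data. Tables and plots were made with Python 3.11.15, pandas 2.3.3, numpy 2.4.6 and matplotlib 3.10.9.

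Alternatives were DESeq2 1.42.0, DESeq2 size factors, scaling without mitochondrial genes, no filter, a filter of 10 CPM in 2 libraries, offsets for average transcript length and for each library's trend over length, limma 3.58.1 on the log2 of TPM with 1 or 0.1 added, voom with quality weights, a replicate block, the omission of 1 library at a time, both outlying libraries left out and the contrast alone. After seeing the data 3 were added, namely copies summed with their member, and that sum and the length trend without both outlying libraries. The members, the gene lists and the outlying libraries were chosen with earlier results of these data known. Named by rule were the mitochondrial members, the nuclear members with the highest and lowest TPM per complex, called members, the 3 lowest and 3 highest nuclear fold changes per contrast, the isoform sets, the c subunit and Sdh genes, Nnt, Arpp21 and up to 2 genes per list. Other members were named after their values were seen, where groups did not overlap or as partners in length. The study's methods name no test for these libraries.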

Additional observations from a re-analysis of the deposited data

Results flagged for a closer look

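Ndufs1, which encodes the largest iron-sulfur subunit of complex I, had fold changes of opposite sign in the 2 stages. Both DN2 Arpp21-/- libraries (154 and 150.3 CPM) were below the DN2 WT mean of 159.8 CPM, with a log2 fold change of −0.0696 (SE 0.23), and all 3 DN3 Arpp21-/- libraries (148, 160.0 and 158 CPM) were above the DN3 WT mean of 138 CPM, with 0.168 (SE 0.21). The difference between the stages was 0.24 (SE 0.31), with an adjusted p of 0.965 in the edgeR interaction, and the groups overlapped in both stages, so no difference was detectable. With 2 or 3 libraries a group, single libraries were not tested for lying far from their group.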

How the results depend on the processing

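Few genes of any kind were called for Arpp21-/- against WT in DN3. The shares of all genes were 0.00727% in the main fit, 0.116% with DESeq2, and 0.211% higher and 0.647% lower with voom. The number of members called in this comparison was 0 under all 27 alternatives. In DN2 it was 0 in the 16 alternatives that leave out no single library and 0 to 83 when each library was left out in turn, with 83 without DN2 Arpp21-/- replicate 1. For the interaction it was 0 in 15 and 0 to 47, with 47 without the same library. For DN3 against DN2 in WT the 2 calls became 5 with DESeq2, 4 with limma on log2(TPM + 1) and 4 with log2(TPM + 0.1), 9 with voom, 13 in the contrast alone, 13 without both outlying libraries, 12 there with copies summed and 16 there with the length trend, and 0 to 4 when each library was left out. The shares of all genes called in the stage comparison grew too, from 1.87% higher and 2.25% lower in the main fit to 4.15% and 4.51% with DESeq2. They were 7.53% and 9.38% with voom, and 6.98% and 8.38% without both outlying libraries. Copies summed there gave 6.56% and 8.99%, and the length trend there 6.39% and 10.4%. Nuclear members called were 2 with DESeq2, 2 with voom and 2 without both outlying libraries, all lower. Whether replicate numbers pair the libraries was not tested. Between WT stages, correlations of deviations were 0.29, 0.0859 and 0.179 for libraries of the same number. For libraries of different numbers they ran from −0.219 to 0.0656. Between DN3 genotypes they were 0.231, −0.114 and 0.089 for the same number and ran from −0.230 to 0.172 for different numbers. Between Arpp21-/- stages they were 0.531 and −0.455 for the same number. The largest, 0.628, was between the outlying libraries, whose numbers differ. Deviations were taken from each group's own mean, so a positive value with 1 library of a group brings lower values with the others. With the replicate block 1 stage call was made and 0 in the other comparisons. The nuclear median for DN2 Arpp21-/- against WT, 1.51, was 0.51 with the length trend, 0.40 with either TPM setting, −0.0892 without both outlying libraries, −0.11 there with copies summed and 0.0008 there with the length trend. The mitochondrial median, 0.46, was −0.39, −0.58, −0.61, −0.62 and −0.50 in the same order. For the interaction the nuclear median, −0.95, was 0.10, 0.12 and 0.0303 in the last 3 settings, and the mitochondrial median, −0.26, was 0.51 with the length trend, 0.39 and 0.40 with TPM + 1 and TPM + 0.1, and 1.02, 1.02 and 0.93 in the last 3. With each library left out in turn the DN2 medians ranged from −0.0882 to 2.26 (nuclear) and from −0.61 to 1.05 (mitochondrial) and the interaction medians from −1.70 to 0.63 and from −0.89 to 0.94, while the DN3 medians ranged from 0.02 to 0.75 and from 0.17 to 0.42 and the stage medians from −0.17 to 0.02 and from 0.96 to 1.18. As shares of TPM in place of counts, nuclear members took 3.81%, 5.18%, 4.00% and 4.59% in DN2 WT, DN2 Arpp21-/-, DN3 WT and DN3 Arpp21-/-, and mitochondrial members 1.57%, 2.69% and 3.26% in DN2 WT, DN3 WT and DN3 Arpp21-/-. The cause of these changes was not tested beyond what each setting leaves out. The common dispersion was 0.281 in all libraries and 0.104 without both outlying ones, so the calls depend on libraries outside the stage comparison. In DN2 the fit without both outlying libraries has 1 Arpp21-/- library, which is assumed to vary like the other groups.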
